A study of Drosophila melanogaster with 2 samples.

Results

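A ChIP-seq experiment on Hinfp in Drosophila melanogaster embryos gave a list of peaks past an irreproducible discovery rate (IDR) threshold. This threshold rests on how well peak ranks repeat between replicates, and the peaks past it were the strongest of those pooled over both replicates. In this list 248 peaks had their summit in an annotated exon away from promoters and 7667 had it elsewhere. Exonic peaks thus made up 3.13% (95% interval 2.76 to 3.54). A peak was counted among them when its summit lay in a 5' UTR, a coding exon, a 3' UTR or an exon of a noncoding RNA and more than 250 bp from every annotated transcription start site (TSS). The choice used position alone and no measured value other than the place of the summit. By class, 63 summits lay in 5' UTRs, 17 in coding exons, 75 in 3' UTRs and 93 in exons of noncoding RNA genes. The other summits of the list comprised 3809 at promoters, 2478 in introns and 1380 in intergenic sequence.

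The embryos came from 1 transgenic line in which CG17829, annotated as Hinfp, carried GFP at its C terminus, and chromatin was precipitated with an antibody against GFP. They were collected at 0 to 24 hours of age as a mixture of males and females, and the 2 biological replicates, numbered 2 and 4, form the only group. Whole animals were used, so the peaks of all embryonic cell types and stages are added together, and they describe the tagged protein rather than the native one. The promoter that drives the fusion is not given in the sources used here, and the series has no second condition. The data are peak lists, 1 for each replicate, 1 pooled over both and the IDR list, and the number of reads behind them is unknown.

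Hinfp is the fly counterpart of the human histone H4 transcription factor HINFP, a zinc finger protein known for binding upstream of histone H4 genes. Transcription factors mostly occupy promoters and enhancers, and enhancers lie chiefly in introns and between genes. Exons can also hold regulatory elements, although coding exons are constrained by the protein sequence. A 5' UTR can be spread over several exons, and a 3' UTR lies at the end of a gene, often close to a neighbour in the compact fly genome.

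The sequences at some of the strongest summits show how base composition varied, within classes as well as between them. Each line gives 30 bases of the plus strand of dm6 from RefSeq, with the 8 bases around the summit in capitals. The 5' UTR examples are the Polycomb gene ph-p and the polarity gene baz, and the coding examples, which leave out the strongest coding peak, are Pde1c, a cyclic nucleotide phosphodiesterase, and CG10357. The 3' UTR examples are the sodium channel gene para and the calsyntenin gene Cals. The noncoding examples are lncRNA:Vinr, lncRNA:CR46035 and the 7SK RNA gene snRNA:7SKa, the last chosen after its values were seen.
ph-p, 5' UTR (chrX:2137943-2137972): gtattgagttgATTTATTAagttttaagtt
baz, 5' UTR (chrX:17178676-17178705): tgctacattgtTAATTTAGttatgtttttg
Pde1c, coding exon (chr2L:11816560-11816589): aggccgcagcgCCATCTGCcggctccgcag
CG10357, coding exon (chr3L:3616528-3616557): gggcaggaactCACATTTCtgattttactt
para, 3' UTR (chrX:16456799-16456828): ccgcgcttctcATCGATGGtaggtaagccc
Cals, 3' UTR (chr4:1113318-1113347): aaaaactgctgCAATATGCtttgttttatt
lncRNA:Vinr, noncoding exon (chrX:12751120-12751149): atataaaatgtGCTCACAAttattaattat
lncRNA:CR46035, noncoding exon (chr3R:17704386-17704415): tcattaaattaTTGTTTCTgatcaagtcac
snRNA:7SKa, noncoding exon (chr3R:7474710-7474739): cgccgcccgtcCCCGCCCAatacggcttcc
Of these 30 bases, 6 were G or C at ph-p, 7 at baz, 5 at lncRNA:Vinr and 8 each at Cals and lncRNA:CR46035. The count was 18 at para, 12 at CG10357 and 23 each at Pde1c and snRNA:7SKa, so these examples do not separate the classes.

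Exons outside promoters held few summits for the amount of sequence they cover. They make up 22.8% of the 6 chromosome arms, or 30.6 Mb, and carried 8.12 summits per Mb, against 45.0 in introns, 36.1 in intergenic sequence and 380 at promoters. The exonic classes differed widely among themselves. Coding exons, which cover 20.9 Mb, carried 0.815 summits per Mb and 3' UTRs carried 11.8. The 5' UTRs beyond 250 bp, at 35.5 per Mb, and exons of noncoding RNAs, at 59.9 per Mb, were close to or above intergenic sequence. These 2 classes cover little sequence, 1.78 Mb and 1.55 Mb.

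**Figure D1:**
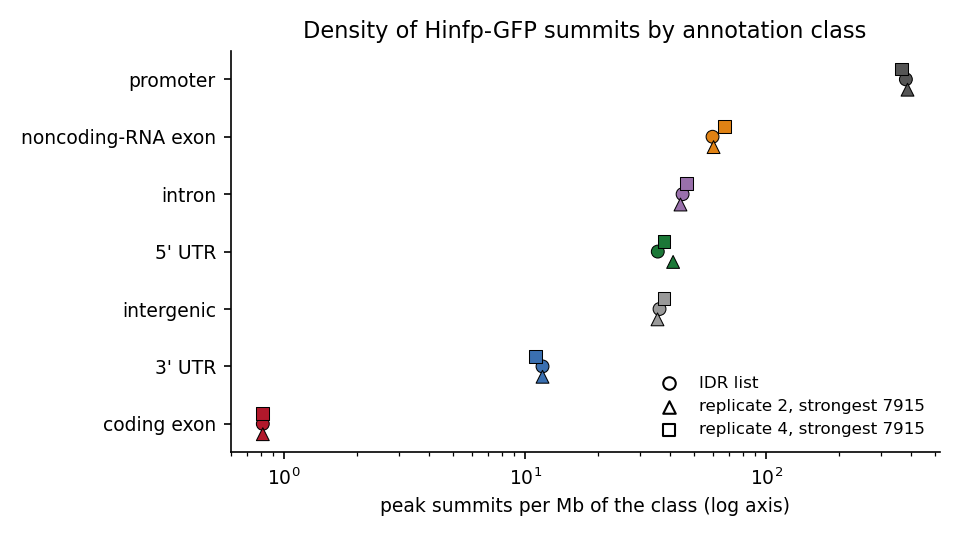
Summits per Mb of each annotation class on a log axis, for the IDR list and for the same number of strongest peaks of each replicate list. Coding exons stand at 0.815 summits per Mb in each of the 3 lists, noncoding exons lie near the introns and promoters stand at 380 in the IDR list.

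The counts were similar when each replicate was taken by itself. As many of the strongest peaks of replicate 2 as the IDR list holds contained 259 exonic summits (3.27%, interval 2.89 to 3.69) and those of replicate 4 contained 258 (3.26%, interval 2.88 to 3.67). Replicate 2 had 73 in 5' UTRs, 17 in coding exons, 75 in 3' UTRs and 94 in noncoding exons. Replicate 4 had 67, 17, 70 and 104 in the same order. Of the 259 exonic peaks of replicate 2, 194 (74.9%) overlapped an exonic peak among those of replicate 4, and 193 of the 258 of replicate 4 (74.8%) did in the other direction. For coding exons it was 14 of 17 in either direction. No such overlap is given for promoter, intron or intergenic peaks, so these shares are not read as a trait of exonic peaks.

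The exonic share depended strongly on how far down the ranking the peaks were taken. The list made from both replicates together held 30000 peaks, of which the IDR list was the strongest part. Among the strongest 3000 of that pooled list, 2.87% of summits were exonic outside promoters (interval 2.30 to 3.53), and among the last 3000 it was 21.3% (interval 19.8 to 22.8). Coding exons accounted for most of the rise, from 6 summits (0.200%) in the first 3000 to 380 (12.7%) in the last. The 3' UTR count went from 22 to 161, and that of 5' UTRs from 17 to 50. Noncoding exons held 41 in the first bin and 47 in the last, with no steady course between: they were lowest at 29 (0.967%, interval 0.648 to 1.39) in ranks 3001 to 6000 and highest at 69 (2.30%, interval 1.79 to 2.90) in ranks 12001 to 15000. Below the IDR threshold the 22085 weaker pooled peaks held 1190 coding summits, 5.39% of them, against 0.215% in the IDR list.

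**Figure D2:**
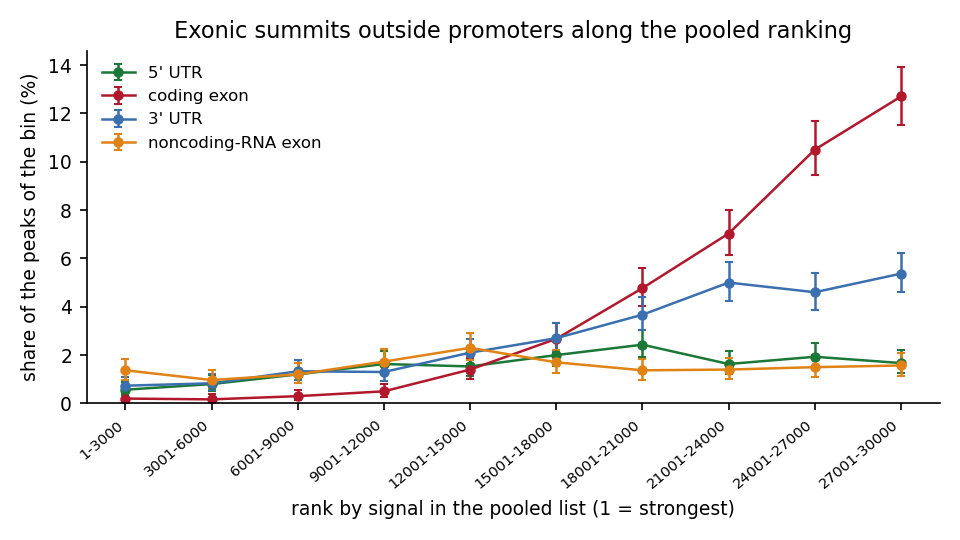
Share of the peaks in bins of 3000 of the pooled ranking whose summit lies in each exonic class, with exact 95% intervals as bars. The coding class stays below 1% through rank 12000 and reaches 12.7% in the last bin, while noncoding exons range from 0.967% to 2.30% with their highest share in the middle of the ranking.

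Within the IDR list the exonic peaks had signal values close to those of the other peaks. The signal is the authors' own value per peak on a scale that is not stated, and it is used here to rank peaks within a list. The median was 229.3 for exonic peaks (quartiles 167.7 and 372.7) against 241.3 for all IDR peaks (177.3 and 376.4). By class the median was 198.2 in 5' UTRs, 234.7 in coding exons, 225.1 in 3' UTRs and 268.4 in noncoding exons. Of the noncoding-exon peaks, 53 of 93 (57.0%, interval 46.3 to 67.2) lay in the stronger part of the IDR list above its median, and of the 5' UTR peaks 21 of 63 (33.3%, interval 22.0 to 46.3).

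Nearly every exonic peak was found in both replicates. Of the 248, 247 (99.6%) overlapped a peak of both replicate lists by at least 1 bp, beside 98.9% of all IDR peaks. The threshold of that list itself rests on repeatability. With each replicate list cut to as many of its strongest peaks as the IDR list holds, it was 206 (83.1%, interval 77.8 to 87.5), beside 83.4% of all IDR peaks, so neither share stood apart from the background. The exception was a 3' UTR peak of tio, a zinc finger gene (2L, 22024365 to 22024794, rank 5191), which had no counterpart in replicate 2 and rank 9003 in replicate 4. The matching summit was itself in an exon outside promoters in 234 of 247 cases for replicate 2 and 236 of 248 for replicate 4. It was so in both replicates for 223 members (89.9%), and no share of this kind is given for the other classes. The median distance between the matching summit of replicate 2 and that of replicate 4 was 24.0 bp, as for all IDR peaks.

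**Figure D3:**
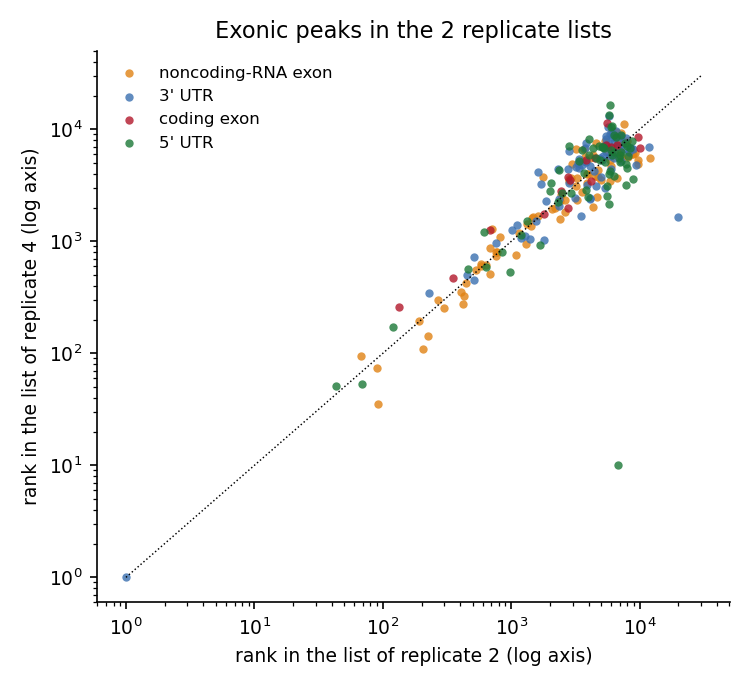
Rank of each exonic peak in the list of replicate 2 against its rank in the list of replicate 4, both on log axes, for the 247 members found in both lists and coloured by class. The dotted line marks equal ranks, para lies at rank 1 in both, and the 5' UTR point far below the line is CG1888.

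Matched ranks were far apart at a pair of closely spaced summits, where a match by overlap can fall on the neighbouring peak. The 5' UTR member at CG1888 had rank 7615 in the IDR list with a signal of 143.1, and rank 6814 in replicate 2, yet its nearest counterpart in replicate 4 had rank 10. A promoter summit of rank 11, in an overlapping peak, lay 199 bp away. Whether the match in replicate 4 is this neighbour was not tested, so the ranks are not read as a difference between replicates. In all, 19 members (7.66%) overlapped another peak of the IDR list, beside 9.73% of all IDR peaks.

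The strongest peak of the whole list was exonic. It lay in the last exon of para, which encodes the voltage-gated sodium channel of fly neurons, in the 3' UTR (X, 16456372 to 16457148, summit at 16456814, dm6). Its signal was 5569 in the IDR list, 3039 in replicate 2 and 2546 in replicate 4, and it ranked 1 in all 3 lists. The summit was 7662 bp from the nearest TSS and 1787 bp from the end of the transcript. A second, weak peak lay 1874 bp away in the same exon, at rank 7760 with a signal of 140.5. Its ranks were 7185 in replicate 2 and 8766 in replicate 4.

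The 3' UTR members lay at a median of 1607 bp from the nearest TSS (quartiles 1118 and 3535), beside 840 bp for all exonic members. Their median distance to the end of the transcript was 210 bp. The nearest TSS belonged to another gene for 42 of the 75, and 63 were in the last exon of a multi-exon transcript and the other 12 in single-exon transcripts. These places follow in part from the class itself, and no such values are given for 3' UTR sequence at large. After para the strongest was in Cals (chromosome 4, rank 269, signal 1097, ranks 228 and 347 in replicates 2 and 4). It was followed by scf at rank 457, CG9837 at 480, CG5984 at 574 and CG7872 at 851. The summit was 46 bp from the transcript end at scf and 40 bp at CG5984, but 978 bp at CG9837. Of the 75, 24 (32.0%, interval 21.7 to 43.8) were on the X. Of all 248 exonic members, which include these 75, 57 were on the X (23.0%, interval 17.9 to 28.7). The part of 3' UTR sequence that lies on the X is not given. Exonic members made up 4.21% of the IDR peaks on the X (interval 3.20 to 5.42) and 2.72% to 3.11% on the 4 large autosomal arms, intervals that overlap.

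In 5' UTRs the summits lay at a median of 544 bp from the nearest TSS, which belonged to the host gene for 55 of the 63. They were in the first exon in 36 cases and in an internal exon in 23, and 39 of them (61.9%) were also in an intron of another transcript of the same gene. The strongest was at ph-p, a subunit of Polycomb repressive complex 1, with rank 51 and a signal of 2085 in the IDR list. It had 1229 in replicate 2 and 943.0 in replicate 4, with ranks 43 and 51. At baz, which encodes the polarity protein Bazooka, also called Par-3, the peak of rank 62 (X, 17178459 to 17178937, signal 1972) had ranks 69 and 53 in replicates 2 and 4. Its summit was 4551 bp from the nearest TSS, in exon 2. Next were l(2)k01209 at rank 140, the cyclic AMP phosphodiesterase gene dnc at rank 496, the ethanolamine kinase gene eas at 627 and the kinase gene Raf at 718. Both replicates ranked dnc and eas close to these places, at 459 and 569 for dnc and 637 and 587 for eas.

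The 17 coding-exon peaks were spread over the ranking, from rank 179 to 7715. The strongest was in the last exon of otp, a homeobox gene, with a signal of 1315 (809.4 in replicate 2, 509.7 in replicate 4). The second was in Pde1c, at rank 397 with a signal of 914.4 (526.0 and 386.7). Then came CG10357 at rank 904, CG44812 at 1673, l(3)mbn at 2365 and the ubiquitin ligase gene Ubr1 at 2415. These 6 lay in the stronger part of the list, as did klar, which acts in nuclear positioning, at 3013 and the insulin receptor gene InR at 3069. The weaker ones were in CG32428, the histidyl-tRNA synthetase gene HisRS, Socs36E, the mitochondrial import gene Tim17b1, the salivary glue gene Sgs3, the JNK phosphatase gene puc, CG15531, the cytochrome P450 gene Cyp4p2 and RpL36.

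Coding summits lay in exons with a median length of 338 bp, against 1138 bp for all members, most of which lie in UTRs or noncoding exons. No length is given for coding exons at large, so a preference for short ones is not drawn from this. The median distance to an exon edge was 81.0 bp, and it was at most 100 bp for 10 of the 17 (58.8%, interval 32.9 to 81.6), beside 84 of all 248 members (33.9%), and the part of exon length in this was not tested. The peak intervals were coding over a median of 58.5% of their length, with a range from 27.5% to 100%, and 12 of the 17 also covered sequence that is only intronic. Those of klar, InR and Sgs3 were the 3 that were coding throughout. At l(3)mbn 27.5% of the interval was coding and 72.5% intronic.

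Noncoding RNA genes supplied the largest class, 93 summits, of which 86 were in lncRNA genes, 6 in antisense RNA genes and 1 in snRNA:7SKa. In 60 cases the exon was the only exon of its transcript. Of the 93, 23 lay inside a protein-coding gene and the other 70 were a median of 2746 bp from the nearest one. The strongest were in lncRNA:Vinr on the X, where 2 summits 203 bp apart shared the interval 12750768 to 12751687, at ranks 49 and 119. Their signals were 2119 and 1518 in the IDR list, 960.3 and 683.6 in replicate 2, and 1091 and 733.4 in replicate 4. Another summit of rank 80 lay where the end of lncRNA:Vinr overlaps the first exon of lncRNA:CR44619, with signals of 1809, 1054 and 784.7 in the 3 lists. The peak of rank 83 was in lncRNA:CR46035, which lies in an intron of osa, a subunit of the Brahma chromatin remodelling complex. Its signal was 1795, with 964.5 in replicate 2 and 838.7 in replicate 4.

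Other noncoding hosts among the strongest 20 exonic members were lncRNA:CR44676 at rank 184, lncRNA:CR44363 at 192, lncRNA:CR44365 at 271 and lncRNA:CR44380 at 288. They also included lncRNA:CR43823 at 363, lncRNA:CR43626 at 386 and lncRNA:CR44478, in an intron of Socs36E, at 435. The peak at snRNA:7SKa (3R, 7474568 to 7474900, rank 2413) lies over a gene for the 7SK RNA, which holds the elongation factor P-TEFb in an inactive complex. Its signal was 335.2 in the IDR list, with rank 1764 in replicate 2 and 3737 in replicate 4. The 7SK summit had the highest G+C content of all members, 72.3% in 101 bp. No exonic summit lay in any of 290 tRNA genes or 269 snoRNA genes, nor in an rRNA gene or pseudogene. A gene shorter than the distance limit to a TSS cannot host a member, because a summit in it counts as a promoter summit. For such short genes the absence is set by the rule, and the lengths of these genes were not examined. No limit on their share is therefore drawn from it.

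The host with the most summits was lncRNA:CR43334, a transcript of 15466 bp on 3L (628435 to 643900) that contains mir-ban, the bantam microRNA, known for promoting growth and blocking cell death. Its 6 exonic summits had ranks 336, 590, 775, 2151, 3002 and 7344 and signals from 982.0 down to 147.9. All 6 were in both replicate lists: their ranks ran from 419 to 9629 in replicate 2 and from 275 to 5296 in replicate 4. The nearest summit to mir-ban was 389 bp away, at rank 3002, and the strongest was 7375 bp away. The other hosts with 3 summits or more were lncRNA:Vinr, baz and eas. In baz all 3 were in the long exon 2, with a strong peak of 1972 and weak ones of 180.8 and 162.7. In eas 2 lay in the 5' UTR of the first exon, at 736.8 and 279.0, and the last in the 3' UTR, at 158.8.

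**Figure D4:**
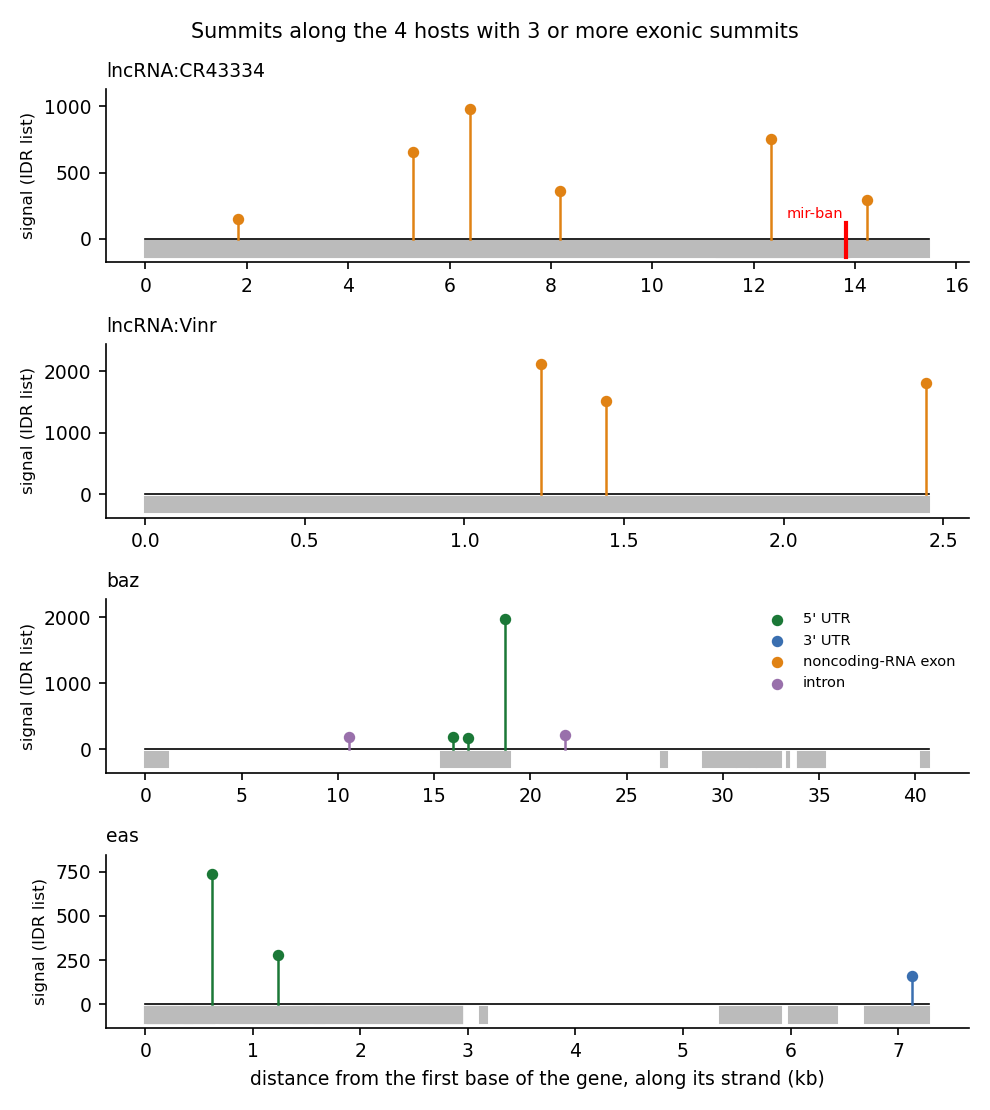
IDR summits along the 4 hosts with at least 3 exonic summits, with distance from the first base of the gene on the horizontal axis and signal as the height of each stem, coloured by class. Grey boxes are exons of any transcript, and the red bar is mir-ban, 389 bp from the nearest of the 6 summits in lncRNA:CR43334.

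Few genes hosted an exonic summit, and those that did were long at the median. Of 13945 protein-coding genes, 152 (1.09%, interval 0.924 to 1.28) hosted 1 or more, and of 3261 noncoding RNA genes 81 did (2.48%, interval 1.98 to 3.08). The protein-coding hosts had a median length of 5868 bp, against 2166 bp for all protein-coding genes, and the noncoding hosts 1353 bp against 558 bp. A summit at a promoter was also present for 65 of the 152 protein-coding hosts (42.8%, interval 34.8 to 51.0) and for 31.7% of all protein-coding genes. By the rule a gene shorter than 250 bp cannot host a member, and the first quartile of all noncoding RNA gene lengths was 223 bp. The rule itself thus favours long hosts and lowers the shares over all genes. The part of gene length in these differences beyond that was not tested.

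The gene lists contributed few summits. In the IDR list the share of every list but the signalling one was above that of all protein-coding genes, each on 1 to 3 hosts. Of 39 patterning transcription factors, 3 hosted a summit (7.69%): ush, a GATA cofactor, at rank 3014, and the Hox genes Antp at 5271 and lab at 7228. Of 22 Polycomb and Trithorax group genes 2 did (9.09%), ph-p and Su(z)2, the latter at rank 7036. Of 21 ion channel genes it was para alone (4.76%). Of 19 listed RNA-binding and splicing genes it was brat, a translational repressor, at rank 7308 (5.26%). Among 92 ribosomal protein genes RpS26 and RpL36 did (2.17%). None of 24 listed signalling genes did, which allows a share of up to 12.5%. That list holds ligands, receptors and effectors of the Dpp, Wg, Hh, Notch, EGFR and JAK/STAT pathways, and other signalling genes outside it, such as Raf, InR, puc and Socs36E, were hosts. Over all protein-coding genes the share was 1.09%. The intervals were 1.62 to 20.9 for the patterning list and 1.12 to 29.2 for the Polycomb and Trithorax list, whose lower limits were above that share, and those of the other lists reached below it. In the list of either replicate alone, 2 patterning genes were hosts, and the Polycomb and Trithorax hosts numbered 1 to 2. The intervals hold for the counts of the IDR list only, and are not given for these smaller counts. No test was made of these shares. The part of gene length in the shares of the lists was not tested.

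Base composition at the summit differed by class. Over 101 bp the median G+C content was 34.7% for exonic members and 32.7% for all IDR peaks. It was 30.7% in noncoding exons, 33.7% in 3' UTRs and 39.6% in 5' UTRs, but 53.5% in coding exons. Over the whole of each class outside promoters, the G+C content of the genome is 42.7% in noncoding exons, 35.1% in 3' UTRs, 45.1% in 5' UTRs and 53.4% in coding exons. Windows 500 bp to either side gave a median of 44.6% for the noncoding class. The summit window was poorer in G+C than these flanks at 77 of 93 noncoding members (82.8%, interval 73.6 to 89.8), 48 of 75 in 3' UTRs (64.0%), 37 of 63 in 5' UTRs (58.7%) and 2 of 17 in coding exons (11.8%, interval 1.46 to 36.4). Intronic IDR summits were poorer than their flanks in 82.5% of cases.

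**Figure D5:**
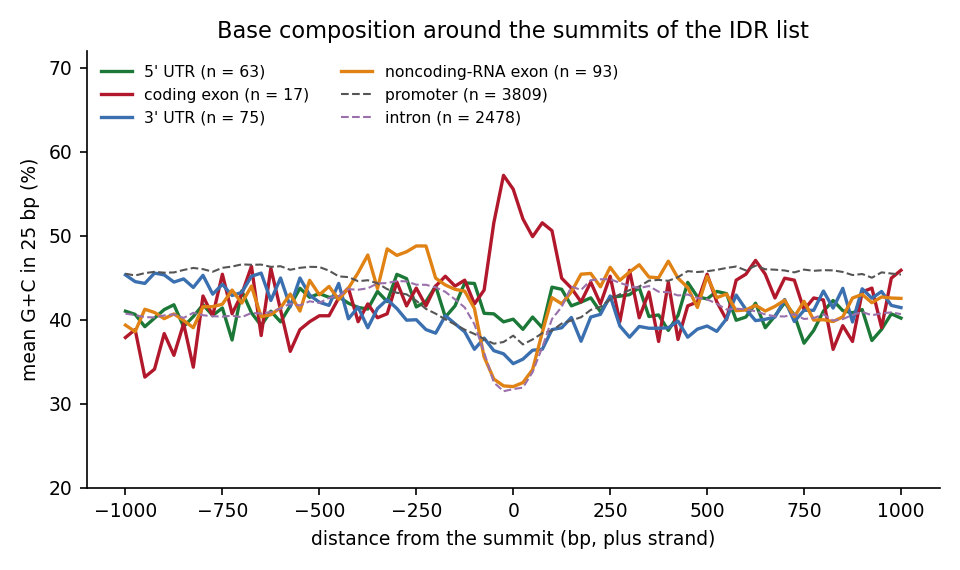
Mean G+C content in bins of 25 bp against distance from the summit for the 4 exonic classes (solid) and for promoter and intron summits (dashed). Noncoding-exon summits dip at the centre along the same course as intron summits, and the coding class, with 17 members, peaks there.

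Of the words known from promoters, those bound by DREF and M1BP were less frequent in the exonic windows than in those of promoter peaks, and the TATA box and GAGAGA had similar shares in both. Each word was searched on both strands within 50 bp of the summit. TATCGATA, the element bound by DREF, was in none of the 248 windows (up to 1.21% with 3 counts) but in 256 of 3809 promoter peaks (6.72%), and in 3.76% of windows at all TSSs. GGTCACAC, the core of Motif 1 bound by M1BP, was in 1 exonic window (0.403%) and in 5.57% of promoter peaks, with 3.90% at all TSSs. Intron peaks held these words at 0.202% and 0.323%, near the exonic values. The core of the human HINFP site, ACGTCCGC, was in no exonic window (again up to 1.21%), in 0.184% of promoter peaks and in 0.322% of all TSS windows, and its shorter form GTCCGC was in 3 exonic windows (1.21%) and 2.02% of promoter peaks, with 3.13% at all TSSs.

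AATAAA, the sequence of the polyadenylation signal, was counted on either strand whatever the strand of the host, so its windows are not a count of such signals. It was in 29 of 75 3' UTR windows (38.7%, interval 27.6 to 50.6). Of windows 500 bp away from these, 25.3% held it (interval 18.6 to 33.1), and the intervals overlap. It was in 33 of 93 noncoding windows (35.5%) and 30.8% of intron peaks, and in 16.1% of windows at all TSSs. TATAAA was in 17.7% of the exonic windows and 13.7% of their flanks, with 19.7% of promoter peaks and 15.0% at all TSSs. The composition of the sequence also moves with these shares, and its part was not tested. The remaining words were in 6.05% of the exonic windows or fewer. They are, each with its share of TSS windows last, GAGAGA (4.44%, 3.94% of promoter peaks and 3.99% of TSS windows), CACGTG (0.403%, 1.80%), CAGCTG (6.05%, 7.83%), CAGGTAG (1.21%, 0.471%), CACACACA (1.21%, 1.90%), AAAAAAAA (4.03%, 4.64%), CAGCAGCAG (1.21%, 0.772%) and GGTAAG (3.63%, 2.41%).

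The most summit-centred 8-mers of the other IDR peaks were counted in the exonic ones, which took no part in choosing them. The promoter and intron peaks set beside them did take part, so their shares can be raised by the choice. GGTCACAC and TATCGATA led that choice, followed by AACTATCG, CAACACTG and TAATATTA. AACTATCG was in 1 exonic window, at the weak baz peak of rank 5816, and in 3.23% of promoter peaks and 1.26% of TSS windows. CAACACTG was in 2 (0.806%), against 2.73% of promoter peaks and 1.59% of TSS windows. TAATATTA was in 4 (1.61%, interval 0.441 to 4.08), against 2.50% of intron peaks and 0.284% of TSS windows.

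A further word was drawn, after the data had been seen, from the intronic and intergenic IDR peaks alone. GCTTCTCA was in 46 of their 3858 windows (1.19%) and in 8 of 7716 windows 500 bp away (0.104%). It was in 4 exonic windows (1.61%, interval 0.441 to 4.08) and 3 of 496 exonic flanks (0.605%), in 0.604% of promoter peaks and in 0.246% of TSS windows. The 4 words that followed it in the same choice were in 2, 3, 9 and 3 exonic windows: TAATAGTA (0.806%, 0.322% of TSS windows), CACTGAGA (1.21%, 0.314%), AATATATT (3.63%, 0.776%) and AACTATAC (1.21%, 0.191%). The 4 members with GCTTCTCA are para, the RNA-binding protein gene Rbp6, lncRNA:CR44657 and RpL36, and they are printed on the plus strand with the word in capitals.
para, 3' UTR, rank 1 (chrX:16456792-16456821): cctctctccgcGCTTCTCAtcgatggtagg
Rbp6, 3' UTR, rank 2685 (chr3L:17060985-17061014): cctctctctgcGCTTCTCAaaaaggccaag
lncRNA:CR44657, noncoding exon, rank 4049 (chrX:14115441-14115470): cccttctcggcGCTTCTCAtaaattgaaat
RpL36, coding exon, rank 7715 (chrX:628603-628632): ctccatggtgcGCTTCTCAtagggagcgtg
Over the 6 arms the word occurred 3240 times, and 75 of those sites (2.31%, interval 1.82 to 2.89) were within 50 bp of an IDR summit. That was 2 of 120 sites in 3' UTRs outside promoters (1.67%), 1 of 792 in coding exons (0.126%) and 24 of 241 at promoters (9.96%). In introns, whose peaks helped to choose the word, it was 35 of 1163 (3.01%). In all 4 members the word is preceded by the bases gc, and since this longer form was read from their own windows, its shares in exons are not given. At promoters, whose peaks chose neither form, 7 of 31 sites of the longer form were within 50 bp of an IDR summit (22.6%, interval 9.59 to 41.1), with 31 of 104 in introns (29.8%) and 9 of 105 in intergenic sequence (8.57%). A match is a description of the letters in the window and was not tested as a binding site.

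The distance limit of 250 bp cuts through a continuous run of summits. The nearest members beyond it were in lncRNA:CR46446 and lncRNA:CR45365, both 260 bp from a TSS, with signals of 271.9 and 249.0, and in lncRNA:CR45441 at 262 bp, with 159.5. The nearest exonic summits on the other side, counted as promoters, were in AGO2 at 249 bp with 184.8, CHES-1-like at 240 bp with 684.5 and CG1888 at 238 bp with 3340. Another 954 IDR summits were in an exon within the limit, so 1202 summits were exonic when promoters were kept. Of the members, 76 lay at most 500 bp from a TSS and 18 more than 5 kb away.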

How the data were processed

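The authors deposited 4 peak lists in dm6, per the deposited provenance notes: 1 for each replicate and 1 from both replicates together, each made with a control alignment, and 1 thresholded by the irreproducible discovery rate (IDR), which ranks how well peaks repeat. No aligner or peak caller is named there or in the labels. The signal per peak is the authors' deposited value on an unstated scale, used within 1 list. Starts, ends and summit offsets are other deposited values, positions without normalization. Read depth is unknown, and reads were not analysed here.

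Summits were classified with the Ensembl 115 annotation of BDGP6 without transposons (18164 genes, 23581 TSSs, 6 arms) with promoters first, then 5' UTRs, coding exons, 3' UTRs and noncoding exons, and sequences were read from the RefSeq genome of the same build, positions counting from 1. Scripts used Python 3.11.15, NumPy 2.4.6, SciPy 1.17.1 and matplotlib 3.10.9, and were tested on simulated data with planted classes and words. Intervals are exact Clopper-Pearson at 95%, a count of 0 has a limit of 3 counts, and both cover counting error only. No p-value was computed. The 8-mers were those with the highest ratio of summit to flank windows, 1 added to each count, in at least 100 windows. The word drawn from intronic and intergenic peaks needed 30. Members and lists were chosen with earlier results of these data known.

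Genes named are hosts of the 20 strongest members, of the 6 strongest per class, hosts with 3 or more, all coding members, those lacking a replicate, those nearest 250 bp and hosts in 6 gene lists (4 symbols, otd, nos, Dl and yan, were not matched). Others, CG1888 in the replicate ranks, snRNA:7SKa, Rbp6 and lncRNA:CR44657, were chosen after their values were seen.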

Additional observations from a re-analysis of the deposited data

How the results depend on the processing

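No paired analysis was possible because the series has 1 group. Each replicate alone changed the exonic count and share, the class shares, the exon places and the TSS distance by less than their intervals. Median signal was 100.5 to 122.1 in the replicate lists, whose scale is their own. The share with CACGTG ran from 0% to 0.775% and with CACACACA from 1.16% to 4.63%. Hosts in the Polycomb and Trithorax list numbered 1 to 2, RNA binding and splicing 0 to 1, signalling 0 to 1 and ribosomal proteins 1.

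The strongest 50% of the IDR list gave 115 exonic peaks, 100% in both replicate lists, a median signal of 434.9, 18.3% in 5' UTRs, 46.1% in noncoding exons and 0% with GTCCGC, and the same with CACGTG and with CACACACA. A promoter distance of 100 bp gave 417 peaks (5.27%), with 40.5% in 5' UTRs, 23.3% in 3' UTRs and 30.9% in noncoding exons. A distance of 500 bp gave a share of 2.17%, 37.2% in 3' UTRs, a median TSS distance of 1309.5 bp and 0% with GGTCACAC. A distance of 1000 bp gave 116 peaks (1.47%), 13.8% in 5' UTRs, 50.9% in 3' UTRs, 27.6% in noncoding exons, a median distance of 1933 bp, 0% with GGTCACAC and the same with CACGTG, and 1.72% with AAAAAAAA. Exons of protein-coding genes alone gave 155 peaks (1.96%), with 40.6% in 5' UTRs, 11.0% coding, 48.4% in 3' UTRs, 0% noncoding and a median distance of 1125 bp. Requiring an exon in every covering transcript gave 165 peaks (2.08%). These follow from the narrower or wider choice of summits.

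In both replicate lists were 74.6% with a reciprocal overlap of 50% and 83.1% with each replicate list cut to the length of the IDR list. Windows were also widened to 100 bp on either side of the summit, in place of 50 bp. These longer windows gave higher shares of GAGAGA (12.1%), CACGTG (2.42%), CAGCTG (12.1%), CACACACA (4.44%), AAAAAAAA (9.68%), TATAAA (30.2%), AATAAA (48.4%) and GGTAAG (6.85%). RefSeq annotation gave the same 248 members, and the interval midpoint 245, of which 233 were shared. Leaving out members that overlap another IDR peak, chosen after seeing the data, moved no value past its interval. In all, 159 of 213 recomputed values stayed within the interval or 1.5-fold limit.

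Limits: the class rests on annotated starts, so an unannotated TSS would move a member to the promoters. A summit of an antibody pull-down does not resolve exon from neighbouring intron when the edge is closer than the summit spread. Depth is unknown.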
